A study of Mus musculus with 8 samples.

Results

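The heat shock proteins and DnaJ chaperones of the nucleus accumbens (NAc), the part of the ventral striatum that drives reward seeking, were compared between mice reared with and without maternal separation (MS). Members were chosen by the gene name printed on the array: names that start with Hsp followed by a family letter or number, Dnaja, Dnajb or Dnajc followed by a number, Bag followed by a digit, and Hsf1, Hsf2 and Cryab. The rule used no measured value. It took 83 genes with 125 probes out of 22328 genes named on the array, and 75 genes with 111 probes passed the filter on dim signal (4 or more of the 8 arrays flagged as well above background by the scanner software). All mice were male and of the strain spelled C3H/Hen in the labels, 4 of them control (Ctrl) and 4 of them MS (Stress), with 1 one-colour Agilent array per mouse. MS pups were taken away daily between postnatal days 2 and 14, and their dams were stressed unpredictably in the meantime, whereas control litters stayed with their dams. As adults, mice of both groups had worked for a sweetened milk reward in an operant task and were fasted before the tissue was punched from frozen slices. The individual numbers in the labels begin with 6, 8, 8 and 8 in the controls and with 5, 7, 7 and 7 in the MS mice. No first digit occurs in both groups, and what it stands for is not given in the labels.

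Chaperones help other proteins to fold, and keep damaged ones from aggregating. Hsp70 proteins bind unfolded stretches in a cycle driven by ATP; DnaJ (Hsp40) proteins deliver the clients and start that cycle, while Hsp110 and BAG proteins end it by exchanging the nucleotide. Hsp90 matures kinases and steroid receptors, among them the glucocorticoid receptor, and the small heat shock proteins hold unfolded proteins without ATP. Heat shock factor 1 (HSF1) switches on the heat-inducible members by binding heat shock elements, which are built from inverted repeats of the unit nGAAn. In neurons, Hsc70 (Hspa8) works with auxilin (Dnajc6) to strip clathrin from vesicles and with cysteine string protein (Dnajc5) at synaptic vesicles.

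Heat shock elements were looked for in the promoters that RefSeq gives for the members on GRCm38.p6, from 250 bases before to 50 bases after each annotated start. Of the 83 genes, 66 were matched, with 84 promoters. The members without a promoter, among them Hsf1, Hspa8, Hsp90aa1, Hsp90ab1 and Cryab, were not searched. Both ways of pairing a pair of units were searched, GAANNTTC and TTCNNGAA, each of which reads the same on both strands, and then 3 units in a row in alternating orientation, which contain both pairs. GAANNTTC occurred in 19.0% of the members' promoters and in 7.86% of all 32851 promoters, whereas TTCNNGAA occurred in 9.52% and 8.52%. A gene with several promoters counts more than once in these shares. Counted by gene, either pair occurred in 16 of the 66 members (24.2%) and in 17.0% of all genes with a promoter. Such runs of 3 units were present in 4 of the 66 genes (6.06%), namely Dnajb6, Hspd1, Hspe1 and Hsph1, and in 0.662% of all 27025 genes with a promoter. The stretches that hold the units upstream of the start are shown because they match the pattern of the heat shock element described above. They are written 5′ to 3′ on the strand of the gene, with the GAA and TTC units in capitals.
Hspe1, chr1:55088049-55088086, plus strand: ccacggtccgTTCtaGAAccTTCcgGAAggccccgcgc
Hspd1, chr1:55088049-55088086, minus strand: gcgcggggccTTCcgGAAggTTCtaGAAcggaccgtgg
Dnajb6, chr5:29735842-29735874, plus strand: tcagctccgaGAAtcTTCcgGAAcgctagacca
Hspd1 and Hspe1 encode the partner proteins of the mitochondrial chaperonin (Hsp60 and Hsp10), lie head to head, and share a single window with 4 units, read from opposite strands. The match of Hsph1 is not shown because it reaches past the annotated start. In the shared window the units stand at -89 to -72 from the start of Hspe1 and at -144 to -127 from the start of Hspd1. The units of Dnajb6 stand at -46 to -34 from one of its annotated starts and at -127 to -115 from the other. A match is a description of the letters in the window and was not measured as a binding site. The 4 genes had MS minus control differences from -0.04 to 0.18 (log2, median 0.12). The 56 other tested genes with a promoter ran from -0.48 to 0.82 (median 0.03), a range that covers all 4. A link between the element and the difference was not tested.

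The share of probes well above background was 61.3% ± 5.75 in control and 59.4% ± 1.55 in MS mice (SD, n = 4, exact two-sided permutation test, p = 0.829, where 0.0286 is the smallest p that 4 against 4 allow). Control mouse 4 stood apart at 69.7%, while the other arrays ran from 57.3% to 61.2%. All 8 markers of medium spiny neurons, the main neurons of the NAc, were well above background and none was higher in the controls on average, with a median difference of 0.31. The log2 of their summed level ran from 9.14 to 9.77 in control and from 9.66 to 9.92 in MS mice, with overlap. Control mouse 4 was the lowest control for each of them except Adora2a. For Ppp1r1b it read 6.96, beside 7.58 to 7.73 in the other controls. Of the 6 pallidal neuron markers, 5 were lower in MS mice (median difference -1.34), and the log2 of their summed level ran from 4.94 to 5.17 in control and from 4.70 to 4.83 in MS mice without overlap. Of the 6 astrocyte markers, 4 were lower and 2 higher in MS mice (median difference -0.28), and the log2 of their summed level ran from 4.80 to 4.93 in control and from 4.62 to 4.83 in MS mice. All 6 oligodendrocyte markers (median difference -0.13) and all 6 microglia markers (-0.16) were lower in MS mice, and the summed levels of these 3 lists overlapped between groups. In bulk tissue, fewer cells of a type and less RNA per cell cannot be told apart, and the part of these markers in the results below was not tested.

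No chaperone gene passed the threshold between MS and control mice. The smallest adjusted p among the 75 tested genes was 0.122 (limma with Benjamini-Hochberg adjustment over all 33111 probes), and across all 15867 named genes tested 0.0063% were called at an adjusted p under 0.05, which is 1 gene. That background depended on the processing, with 0 to 504 probes called over the alternatives. Differences, given throughout as MS minus control on the log2 scale, ran from -0.48 for Hspb8 to 0.82 for Dnajb8. Of the 75 genes, 44 had a positive and 31 a negative difference, with a median of 0.04 beside -0.01 over all genes tested. The median size of the difference regardless of sign was 0.09 in the chaperones and 0.10 in all genes. For 62 of the 75 genes (82.7%) the 95% interval of the difference lay within 0.5 log2 units on either side of 0, beside 74.7% of all genes tested. Larger changes than that were therefore outside the interval for most members. Differences near the median size of 0.09 could not be told from 0, as the median interval half-width was 0.20.

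**Figure D1:**
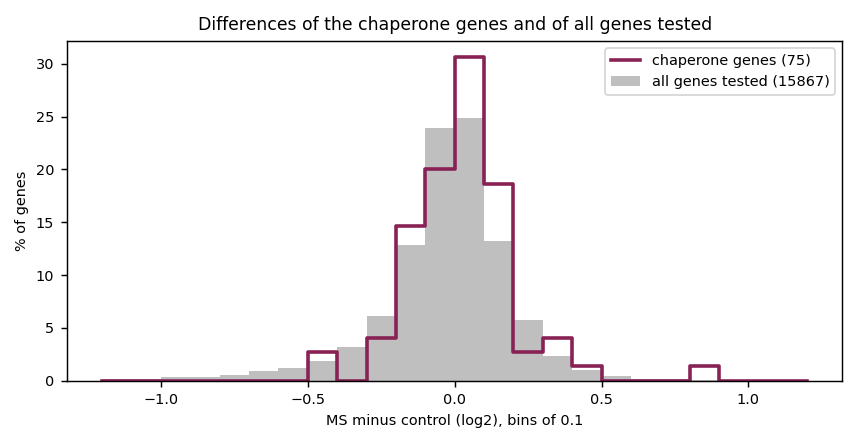
Distribution of the MS minus control differences (log2, horizontal axis, bins of 0.1) as a share of genes (vertical axis) for the 75 chaperone genes (line) and all 15867 genes tested (grey bars; 74 genes lie below and 4 above the plotted range). Most chaperone genes lie in the bins around 0, with Dnajb8 alone in the bin from 0.8.

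Without adjustment, 4 members were higher and 5 lower in MS mice at p under 0.05, which is 5.33% and 6.67% of the 75, beside 5.29% and 9.5% of all genes tested. Control and MS mice did not overlap for 2 members that were higher in MS (2.67%, against a background of 3.37%) and 4 that were lower (5.33%, against 6.66%). These shares are near those of all genes and are not a result about the chaperones as a group.

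**Figure D2:**
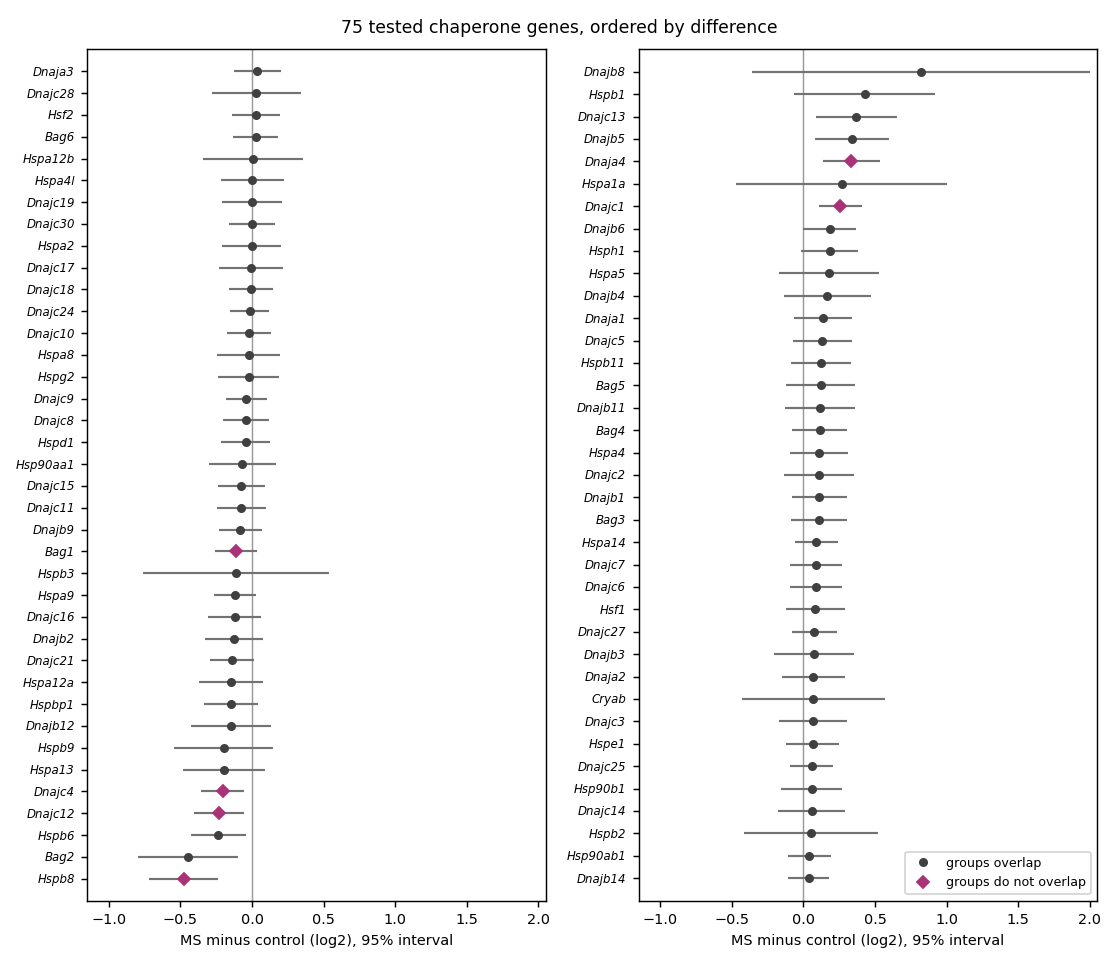
MS minus control difference of each of the 75 tested genes (log2, points) with its 95% interval from limma (bars), ordered by difference from the lowest at the foot of the left panel to the highest at the top of the right panel. Diamonds mark the 6 genes in which the groups do not overlap; the widest intervals are those of Dnajb8, Hspa1a and Hspb3.

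Levels are given below as the log2 of the processed signal over the 75th percentile of the array, in the order of mice 1 to 4, and are compared only within a probe. In all, 5 genes combined an unadjusted p under 0.05 with groups that did not overlap. The gene with the smallest p was Hspb8, a small heat shock protein that works with Bag3 to send misfolded proteins to autophagy. Its probe at chr5:116859063-116859122 (mm9, as are all probe positions) read -0.34, -0.50, -0.33 and -0.06 in control and -0.71, -0.93, -0.83 and -0.68 in MS mice. Every MS mouse was below every control mouse, and the difference was -0.48 ± 0.11 (SE), or 0.719 times the control level, with an adjusted p of 0.122 by limma. The difference was -0.40 within the first row of the slide and -0.56 within the second. It passed the threshold with a variance trend and robust moderation (limma adjusted p = 0.0376) and with normexp and quantile normalization (0.0397). It also passed with the first digit of the individual number as a random block (0.0493). No first digit occurs in both groups, so that block cannot separate the digit from MS, and its consensus correlation was negative (-0.11). Over the alternatives the limma adjusted p of Hspb8 ran up to 0.335. The pallidal, astrocyte, oligodendrocyte and microglia markers described above had negative median differences as well, and their part in this difference was not tested.

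Dnajc4 and Dnajc12, both DnaJ proteins of which the latter is a co-chaperone of aromatic amino acid hydroxylases, were also lower in MS mice without overlap. Dnajc4 (chr19:7062474-7062533) read 2.14, 2.02, 2.07 and 1.96 in control and 1.86, 1.90, 1.83 and 1.79 in MS mice, a difference of -0.21 ± 0.07 (SE; limma adjusted p = 0.236). Dnajc12 (chr10:62871211-62871270) read 1.82, 1.98, 1.83 and 2.00 in control and 1.61, 1.64, 1.64 and 1.80 in MS mice, a difference of -0.23 ± 0.08 (limma adjusted p = 0.244). The gap between the groups was small for Dnajc12, since MS mouse 4 lay just under control mouse 1.

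Dnaja4 and Dnajc1 were higher in MS mice without overlap. Dnaja4, a cytosolic DnaJ protein, read 3.29, 3.50, 3.56 and 3.42 in control and 3.82, 3.61, 3.84 and 3.83 in MS mice at its brighter probe (chr9:54564061-54564120), a difference of 0.33 ± 0.09 (limma adjusted p = 0.165). A second, much dimmer Dnaja4 probe gave 0.07, so the probes of this gene did not give the same size. Dnajc1, a DnaJ protein anchored in the membrane of the endoplasmic reticulum (ER), read 1.26, 1.37, 1.27 and 1.16 in control and 1.57, 1.53, 1.51 and 1.49 in MS mice (chr2:18138907-18141091), a difference of 0.26 ± 0.07 (limma adjusted p = 0.161). Its MS values were the closest together of these 5 genes (SD 0.03). Another 4 genes had an unadjusted p under 0.05 with overlapping groups and are named after their values were seen: Dnajc13 (0.37), an endosomal DnaJ protein, Dnajb5 (0.34), Bag2 (-0.45), an inhibitor of the ubiquitin ligase Chip, and Hspb6 (-0.24). Bag1, the founding BAG protein, did not overlap between groups but had a difference of only -0.11 with an unadjusted limma p of 0.121.

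**Figure D3:**
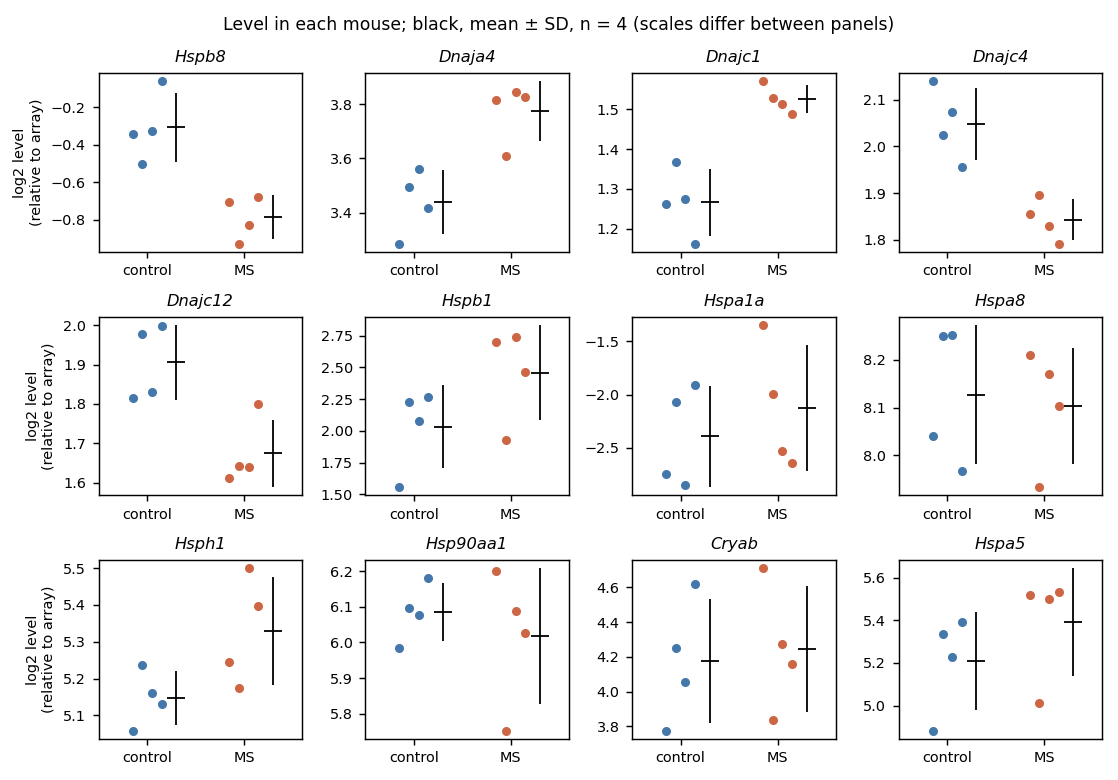
Level of 12 chaperone genes in each mouse (points, log2 relative to the 75th percentile of the array, mice 1 to 4 from left to right in each group, n = 4) with the group mean ± SD in black. The first 5 panels show the genes without overlap between groups, and in Hspb1, Cryab and Hspa5 the lowest values are those of control mouse 1 and MS mouse 2.

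The 2 heat shock factors chosen by name were measured on all arrays. Hsf1, the main heat-responsive factor, read 1.35, 1.26, 1.46 and 1.48 in control and 1.62, 1.29, 1.46 and 1.52 in MS mice, a difference of 0.08 with a 95% interval from -0.12 to 0.29. Hsf2, a factor of development and of proteasome stress, read 0.70, 0.84, 0.75 and 0.86 in control and 0.79, 0.94, 0.73 and 0.80 in MS mice, with a difference of 0.03 (-0.14 to 0.19). The groups overlapped for both. Transcript levels do not report whether HSF1 was bound to DNA.

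Among the cytosolic Hsp70 and Hsp110 proteins, 0 of 7 tested genes were called, with 5 positive and 2 negative differences (median 0.09). Hspa8, the constitutive Hsc70, read 8.04, 8.25, 8.25 and 7.97 in control and 8.21, 7.93, 8.17 and 8.10 in MS mice. Its difference was -0.02 (-0.24 to 0.20), its other probes gave -0.02 and 0.03, and its sign turned positive with median scaling (0.024). Hsph1, the inducible Hsp110, read 5.06, 5.24, 5.16 and 5.13 in control and 5.25, 5.17, 5.50 and 5.40 in MS mice, a difference of 0.18 (-0.02 to 0.38). Its second probe gave 0.23, with an unadjusted limma p of 0.0177 and an adjusted p of 0.254, so both probes pointed the same way and neither passed the threshold.
The strongly inducible Hsp70 gene, Hspa1a, was dim. Its probe (chr17:35107117-35107176) is annotated to the transcripts of Hspa1a and of its near-identical neighbour Hspa1b, so these genes cannot be separated here. It read -2.75, -2.07, -2.85 and -1.91 in control and -1.35, -1.99, -2.53 and -2.64 in MS mice, with a difference of 0.27 (-0.47 to 1.005). MS mouse 1 was highest by a wide margin, and without it the difference was 0.01. The remaining members of the group, Hspa2, Hspa4, Hspa4l and Hspa14, had differences between -0.0040 and 0.11.

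The 3 Hsp90 genes differed little between groups. Hsp90aa1, the inducible cytosolic form, read 5.985, 6.096, 6.078 and 6.182 in control and 6.201, 5.752, 6.088 and 6.027 in MS mice, a difference of -0.07 (-0.30 to 0.17). MS mouse 2 was lowest, and leaving it out turned the difference to 0.02. Hsp90ab1, the constitutive cytosolic form, read 7.42, 7.50, 7.41 and 7.35 in control and 7.50, 7.37, 7.47 and 7.51 in MS mice, a difference of 0.04 (-0.11 to 0.19). Hsp90b1, the ER form, had a difference of 0.06 (-0.16 to 0.27).

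Small heat shock proteins spread the most between mice. Of 7 tested genes 3 had positive and 4 negative differences (median -0.11), and besides Hspb8 and Hspb6 none had an unadjusted p under 0.05. Hspb1 (Hsp25, at chr5:136365366-136365425), the best known inducible member, read 1.56, 2.23, 2.08 and 2.27 in control and 2.70, 1.93, 2.74 and 2.47 in MS mice. Its difference of 0.43 had a 95% interval from -0.07 to 0.92 (limma adjusted p = 0.42), and 3 MS mice lay above all controls while the fourth did not. Within the slide columns, each holding 1 mouse of either group, its difference ran from -0.34 to 1.19, so a single pair of mice could give either sign. Cryab (αB-crystallin), which oligodendrocytes and astrocytes express, read 3.78, 4.25, 4.05 and 4.62 in control and 4.71, 3.84, 4.27 and 4.16 in MS mice, a difference of 0.07 (-0.43 to 0.57). A second Cryab probe gave -0.09, with the same lowest and highest mouse within each group, so the sign was not settled between probes. Hspb2, Hspb3 and Hspb9 were dim, with differences of 0.05, -0.11 and -0.20.

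Of the heat-inducible DnaJ genes, Dnajb1 (Hsp40), the partner of inducible Hsp70, read 4.62, 4.95, 4.71 and 4.77 in control and 4.96, 4.80, 4.89 and 4.84 in MS mice, a difference of 0.11 (-0.08 to 0.30). Dnaja1 gave 0.14 (-0.07 to 0.34) and 0.09 at a second probe. Dnajb6, which suppresses the aggregation of polyglutamine proteins and carries the element shown above, gave 0.18 at its brightest probe (limma adjusted p = 0.36) and between -0.07 and 0.21 over its 4 probes, so the sign differed between probes. Dnajb8, like Dnajb6 not on the list of heat-inducible genes given below, had the largest difference of the family, 0.82, but also the widest interval (-0.36 to 2.00). Control mouse 1 read -5.07 and the other controls between -3.49 and -2.66. MS mouse 1 read -1.91 and the other MS mice between -3.42 and -2.77. The Dnajb8 difference was 1.71 within the first row of the slide and -0.07 within the second.

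In the ER group 6 of 10 tested genes had positive and 4 negative differences (median 0.05), and Dnajc1 was the one gene with an unadjusted p under 0.05. Hspa5 (BiP), the ER Hsp70 and a standard readout of the unfolded protein response, read 4.88, 5.34, 5.23 and 5.39 in control and 5.52, 5.01, 5.50 and 5.53 in MS mice. Its difference was 0.18 (-0.17 to 0.53), and 3 MS mice were above all controls whereas MS mouse 2 was below 3 of the 4. Without MS mouse 2 the difference was 0.31, and without control mouse 1 it was 0.07. Dnajb9 (ERdj4), a BiP co-chaperone, read 1.80, 1.79, 1.73 and 1.78 in control and 1.59, 1.70, 1.72 and 1.77 in MS mice, a difference of -0.08 (-0.23 to 0.07), while its second probe gave 0.15.
Of the 7 mitochondrial genes, 3 had positive and 4 negative differences (median -0.04). Hspa9 (mortalin), the motor of protein import, read 3.50, 3.67, 3.68 and 3.61 in control and 3.47, 3.48, 3.52 and 3.51 in MS mice, a difference of -0.12 (-0.27 to 0.03) in which 3 controls lay above all MS mice. Hspd1 and Hspe1, which share the promoter shown above, had differences of -0.04 (-0.22 to 0.13) and 0.06 (-0.12 to 0.25). Both were lowest among the controls in control mouse 1, at 4.45 and 4.48.

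At the synapse, Dnajc5 read 7.413, 7.380, 7.427 and 7.297 in control and 7.681, 7.420, 7.602 and 7.343 in MS mice, a difference of 0.13 (-0.07 to 0.34). Its 4 probes gave 0.04 to 0.23, all positive, and the dimmest of them had an unadjusted limma p of 0.0252 (adjusted 0.287). Dnajc6 read -0.66, -0.65, -0.54 and -0.46 in control and -0.36, -0.50, -0.60 and -0.50 in MS mice, a difference of 0.09 (-0.09 to 0.27) with overlapping groups. Among the 7 BAG and related exchange factors, 4 differences were positive and 3 negative (median 0.03), and Bag3, the inducible member, read 0.33, 0.40, 0.49 and 0.48 in control and 0.48, 0.36, 0.63 and 0.65 in MS mice (difference 0.11, -0.09 to 0.30). Hspg2 (perlecan, a matrix proteoglycan), Hspb11, Hspa12a and Hspa12b carry the names but are no classical chaperones, and their differences lay between -0.15 and 0.13.

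Within each group, the same mouse was the lowest for most of the heat-inducible genes. Of the 14 genes on the textbook list of HSF1 targets (Hspa1a, Hspa1b, Hspa8, Hsph1, Hspa4l, Hsp90aa1, Hsp90ab1, Hspb1, Cryab, Dnajb1, Dnaja1, Hspd1, Hspe1 and Bag3), 13 were tested, 10 with a positive and 3 with a negative difference (median 0.07). Control mouse 1 was the lowest of the 4 controls for 10 of these 13 genes, and MS mouse 2 was the lowest of the 4 MS mice for 11. Both mice are named after their values were seen, so the shares that follow are a description and no test. Over all genes tested these mice were the lowest of their group for 24.6% and 26.1%, and over the 62 other members for 21 and 16 genes. Among the 10 tested ER members, which are part of those 62, each of the 2 mice was the lowest of its group for 5. Neither mouse was the highest of its group for any of the 13. The exceptions were Hsp90ab1, Hspa8 and Hspa1a in the controls, and Hspa1a and Hspd1 in the MS mice.
In size, the depth of these values varied between genes. Hspb1 lay 0.48 below the control mean in control mouse 1 and 0.53 below the MS mean in MS mouse 2, and Cryab 0.40 and 0.41 below, while Dnaja1 lay 0.15 and 0.16 below. The mean of the 13 genes, taken against each gene's mean over the 8 mice, was -0.23 in control mouse 1, 0.05 in control 2, -0.07 in control 3 and 0.06 in control 4, and 0.20 in MS mouse 1, -0.12 in MS 2, 0.10 in MS 3 and 0.02 in MS 4. These means ran from -0.23 to 0.06 in control and from -0.12 to 0.20 in MS mice, so the groups overlapped. Mouse-to-mouse spread was wide for Hspa1a, Cryab and Hspb1, whose pooled SDs (0.54, 0.36 and 0.35) were at the 97.2, 91.7 and 91.4 percentiles of all genes tested, and narrow for Hsp90ab1 (0.06, percentile 8.04).

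**Figure D4:**
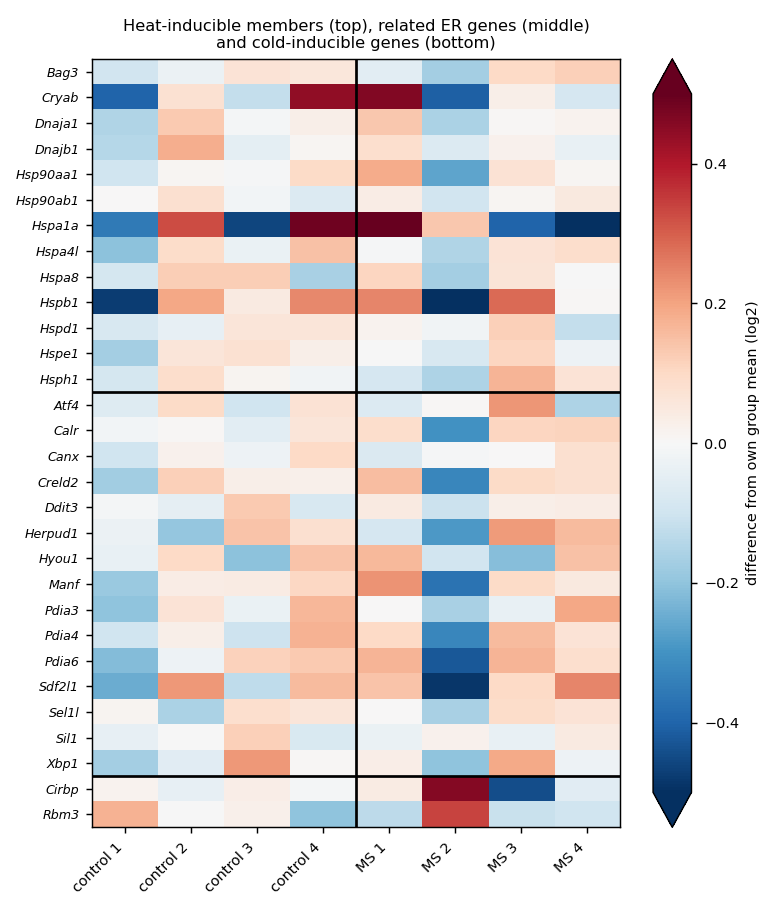
Difference of each mouse from the mean of its own group (log2, colour, cut at 0.5 on either side) for 13 heat-inducible members (top), 15 related ER folding and stress genes (middle) and 2 cold-inducible genes (bottom), with control mice on the left and MS mice on the right. The columns of control mouse 1 and MS mouse 2 are mostly blue in the top and middle blocks, and MS mouse 2 is red for Cirbp and Rbm3.

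The other tested probes of the heat-inducible genes, 7 in all, gave control mouse 1 as the lowest control at 5 and MS mouse 2 as the lowest MS mouse at 6. With the 4 other scalings these counts were 1 to 3 for control mouse 1 and 5 to 6 for MS mouse 2, so at these probes the place of control mouse 1 depended on the scaling. Probes of 1 gene share their RNA, so these are repeated readings rather than new evidence. Under the other scalings MS mouse 2 was lowest for 9 to 10 of the 13 genes. For control mouse 1 the count was 11 to 12 with normexp and quantile, with quantile normalization alone and with the deposited values, but 3 with median scaling, where control mouse 4 was lowest for 9 genes and for 64.6% of all genes. The 2 mice did not stand apart in signal, with 60.1% and 61.2% of probes well above background. Their columns and their place on the slide differed (column 1 and column 4 of the same row), and the part of slide position in the pattern was not tested.

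**Figure D5:**
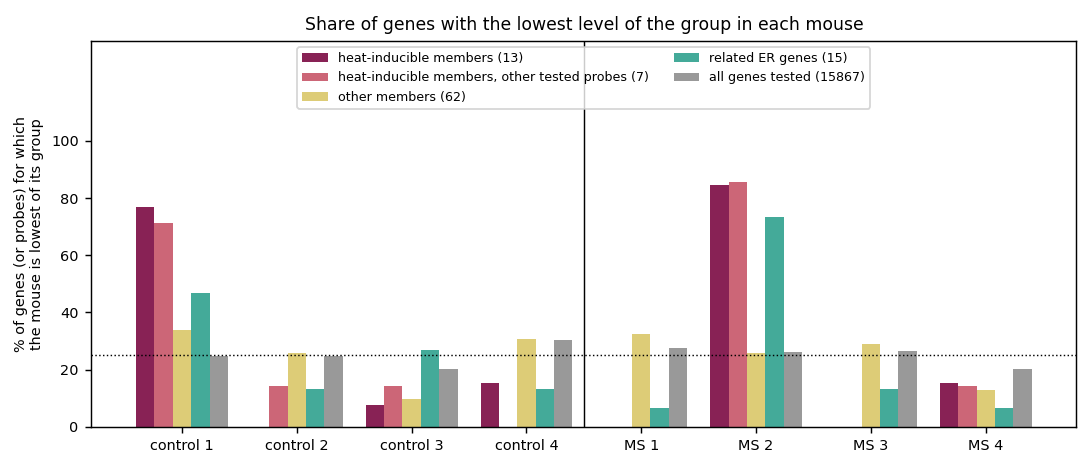
Share of genes, or of probes for the second bar, for which each mouse had the lowest level of the 4 mice of its group (vertical axis, %), for heat-inducible members, their other tested probes, the other members, related ER genes and all genes tested, with the number of genes or probes in the legend. The dotted line is at 25%; control mouse 1 (76.9%) and MS mouse 2 (84.6%) stand above it for the heat-inducible members.

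Among related genes of the same pathways that the name rule leaves out, 0 were called in every list. Among 15 co-chaperones of Hsp90 and Hsp70, 8 differences were positive and 7 negative (median 0.02). Chordc1, an inducible Hsp90 co-chaperone, gave 0.14, and Stip1 (Hop), the bridge between Hsp70 and Hsp90, gave -0.02, with a sign that turned positive under median scaling (0.029). St13 (Hip) was the one gene of that list without overlap (0.24, limma adjusted p = 0.247) and is named after its value was seen. The 14 subunits of the TRiC chaperonin and prefoldin had 4 positive and 10 negative differences (median -0.03). MS mouse 2 was the lowest MS mouse for 8 of the 15 co-chaperones and for 7 of these 14 subunits. Control mouse 1 was the lowest control for 6 and 4 of them, and control mouse 4 for 7 and 4.
In the list of 15 ER folding and stress genes, 10 differences were positive and 5 negative (median 0.10), and Hyou1, an ER Hsp110, gave -0.03, which was 0.019 under median scaling. MS mouse 2 was the lowest MS mouse for 11 of the 15, under all 5 scalings. Control mouse 1 was the lowest control for 7, for 7 to 8 with the other scalings except the median, and for 3 with median scaling. Pdia6, a disulfide isomerase, lay 0.42 below the MS mean in MS mouse 2, and Manf, a secreted ER stress factor, 0.37 below. The pair of cold-inducible RNA-binding proteins went the other way in MS mouse 2. Rbm3 read 3.76, 3.59, 3.61 and 3.39 in control and 3.49, 3.96, 3.51 and 3.52 in MS mice, with its highest value in MS mouse 2 and the next in control mouse 1. Cirbp read 3.96, 3.90, 3.98 and 3.93 in control and 3.68, 4.10, 3.19 and 3.58 in MS mice, so that MS mouse 2 stood above every other mouse while the remaining MS mice stood below every control. The differences between groups were 0.03 for Rbm3 and -0.30 for Cirbp (limma adjusted p = 0.946 and 0.458). The difference of Cirbp was -0.46 without MS mouse 2 and -0.16 without MS mouse 3.

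The largest differences of the related genes were those of 2 heat shock factors outside the name rule. Hsf4, a factor of lens and other differentiated cells, read -1.35, -1.61, -1.70 and -1.36 in control and -1.73, -2.01, -2.38 and -2.03 in MS mice, a difference of -0.53 ± 0.15 (SE; limma adjusted p = 0.175). Hsf5, a factor known from the testis, read -2.49, -2.62, -2.28 and -2.44 in control and -1.89, -1.89, -2.19 and -2.04 in MS mice, a difference of 0.45 ± 0.10 (limma adjusted p = 0.124, and 0.0248 with the deposited log2 values). Hsf4 and Hsf5 thus separated the groups in opposite directions, Hsf4 by a narrow gap between control mouse 3 (-1.70) and MS mouse 1 (-1.73). Hsbp1, which binds HSF1 and inhibits it, also did not overlap, but only just (control mouse 2 at 3.474, MS mouse 2 at 3.470). The Hsbp1 difference was -0.08, with an unadjusted limma p of 0.225. Over all genes tested, 3.37% were higher and 6.66% lower in MS mice without overlap. The study lists Hsf5 among its changed genes from these samples, so its direction is not independent evidence.

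Of the 83 members, 8 were not tested, being too dim in most mice: Hspb7, Hspa1l, Hspbap1, Dnajb7, Dnajb13, Dnajc5b, Dnajc5g and Dnajc22. Several of these are known from testis or muscle. For Dnajb7, Dnajb13, Dnajc5b, Dnajc5g and Dnajc22 no array of either group was well above background, and the other 3 passed on 1 or 2 arrays, so no difference is given for them. No member probe was saturated on any array. Among the 26 members with several tested probes, the signs of the differences varied between probes for 12, including Cryab, Dnajb6, Dnajb9, Hspa8 and Hspa13, and were the same for 14. All probes of Hspa4 (0.11 to 0.17), Hspe1 (0.04 to 0.09) and Dnajc5 were positive, and those of Dnajb2 (-0.22 to -0.13) and Dnajc11 (-0.15 to -0.06) negative.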

How the data were processed

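Cy3-labelled cRNA from NAc punches of 8 mice was hybridised to Agilent arrays, 1 mouse per array. Per the file headers the authors extracted linear spot intensities with Agilent Feature Extraction 10.10.1.1, and they also deposited a table of normalized log2 values, used here as an alternative. The array design in the headers differs from that in the methods, and probe names and mm9 positions are those of the headers; exon or UTR position was not used here. Control and outlier-marked spots were left out, spots of a probe averaged, and the processed signal taken as log2 minus each array's 75th percentile. The 33111 probes that 4 or more of the 8 arrays flagged as well above background were fitted with limma 3.58.1 (R 4.3.3), Benjamini-Hochberg over all of them, threshold 0.05. A gene was represented by its brightest tested probe, and genes by RefSeq names (15867). The number of mice, 4 per group, limits the precision. Scripts were tested on simulated data. Named were members that passed the threshold or combined an unadjusted p under 0.05 with no overlap between groups, and a list of well-known chaperones. Members and lists were chosen with earlier results of these data known. Promoter sequences are from RefSeq (GRCm38.p6) and were searched with Python 3.11.15. Alternatives in background correction, scaling, filtering, moderation, blocks and left-out mice are given in the closing section.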

Additional observations from a re-analysis of the deposited data

Results flagged for a closer look

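In 4 of 68 groups of 4 mice examined (the named genes and 2 array measures), 1 mouse lay far from the other 3, where chance gives about 1 in 20 such groups. MS mouse 2 was the mouse apart in 3 of them: its log2 level of Dnaja4 was 3.61, below the next MS mouse at 3.82, that of Hspa5 was 5.01, below the next at 5.50, and that of Rbm3 was 3.96, above the next at 3.52. MS mouse 4 was apart for Dnajc12, at 1.80 above the next MS mouse at 1.64.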

How the results depend on the processing

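The count of chaperone genes past the threshold, 0 in the values reported, was 1 with normexp background correction and quantile normalization (Hspb8), 2 with a variance trend and robust moderation (Hspb8 and Dnaja4), 1 with the first digit of the individual number as a random block (Hspb8, consensus correlation -0.11), and 0 under every other alternative, leaving out each mouse included (0 to 0). The count with an unadjusted p under 0.05 was 9, rose to 14 with normexp and quantile, ran from 8 to 12 when a mouse was left out (12 without MS mouse 2, 8 without control mouse 1 or control mouse 3), and was 5 higher and 2 lower with median scaling. Related chaperone genes past the threshold numbered 0, and 1 (Hsf5) with the deposited log2 values. Over all probes the count of 1 became 449 with normexp and quantile, 375 with the deposited table, 96 after median scaling, 113 with probes well above background on all 8 arrays, 504 with the trend and robust moderation, 443 with the random block, 9 with the mean over probes of a gene, and 0 without a filter on dim probes, with slide column as a block or without moderation, and ran from 0 to 37 when a mouse was left out (37 without control mouse 3). Of the 32 named genes, 26 kept their direction under every alternative with all mice. The direction turned with median scaling for Hspa8 (0.024), Hspd1 (0.0032), Stip1 (0.029) and Hyou1 (0.019), and with the mean over probes for Cryab (-0.0082) and Dnajb9 (0.034). Leaving out 1 mouse gave ranges across 0 for Hsf2 (-0.013 to 0.055), Hspa8 (-0.077 to 0.034), Hsp90aa1 (-0.13 to 0.020), Cryab (-0.086 to 0.22), Stip1 (-0.067 to 0.065), Hyou1 (-0.096 to 0.044) and Rbm3 (-0.082 to 0.089). The labels give control and MS mice no shared replicate numbers, so the slide column, which held 1 mouse of each group, was the one block that set mice side by side in pairs. Hspb8 is not in the deposited table used here, which holds 74 of the tested chaperone genes, so that alternative gave it no value. Among the dim genes Hspa1a, Dnajb8 and Hspb3 had the widest intervals, but the brighter Cryab and Hspb1 also had wide ones, and the part of signal was not tested. Leaving out 1 mouse moved Hspa5 to between 0.07 and 0.31 and Cirbp to between -0.46 and -0.16.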
